A study of Mus musculus with 6 samples.

Results

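The genes described here encode voltage-gated sodium channels, voltage-gated calcium channels and HCN channels, the hyperpolarization-activated cation channels. They were chosen by name: every gene whose single symbol in the platform annotation was an Scn gene with a number and the letter a or b, began with Cacna, or was Cacnb or Hcn with a number from 1 to 4. The rule found 29 of the 18193 genes on the array, namely 8 sodium channel alpha subunits, 3 sodium channel beta subunits, 9 calcium channel alpha1 subunits, 4 alpha2delta subunits, 3 calcium channel beta subunits and 2 HCN subunits. These genes had 72 probe sets (groups of short probes that read 1 stretch of a transcript), and each gene was read on its brightest one, taken as the mean of the 6 arrays.

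The arrays held RNA from newborn mice on a C57BL/6 background, taken on postnatal day 1. The D6/Zbtb20S group had 3 arrays of subiculum and retrosplenial cortex that the labels call CA1-transformed, from transgenic mice. The wildtype group had 3 arrays of the same 2 areas from mice labelled wildtype. Each array held pooled RNA of 7 animals, so the spread between arrays is a spread between pools, and nothing says whether the pools came from separate litters. As background, D6 is a regulatory element of the Dach1 gene that is active in the developing cortex and hippocampus, and Zbtb20 is a zinc finger repressor of hippocampal pyramidal neurons. The dissected tissue held all cell types of both areas, so a lower signal cannot tell fewer cells of a type from less RNA per cell.

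Sodium channels open on depolarization and carry the upstroke of the action potential. Their pore is the alpha subunit, and the beta subunits tune gating and bind neighbouring cells. Calcium channels turn depolarization into calcium entry for transmitter release, dendritic spikes and gene regulation. Their alpha1 pore is brought to the membrane and tuned by an alpha2delta and an intracellular beta subunit. HCN channels open on hyperpolarization and set the resting potential and dendritic integration, and CA1 pyramidal neurons are known for them. In the newborn cortex the makeup of these channels is still changing.

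Some facts of the arrays bear on all values. Zbtb20 was read first, as the gene carried by the transgene: on probe set 1422064_a_at it had log2 signals of 8.88, 9.10 and 8.94 in D6/Zbtb20S arrays against 6.44, 5.84 and 7.64 in wildtype arrays (limma adjusted p = 0.00904 in the fit over probe sets). It was the only 1 of 9 Zbtb20 probe sets that passed. The brightest, 1437598_at, was at -0.14 (adjusted p = 0.825), and 4 of the 9 had negative changes, so most Zbtb20 probe sets did not separate the genotypes. On every Zbtb20 probe set wildtype replicate 3 stood above the other wildtype arrays. On most of them it also lay above all D6/Zbtb20S arrays, as on 1437598_at (8.98 against 8.11, 8.26 and 8.25). RNA quality was read on the actin control probe sets, where the signal near the 3' end exceeded that near the 5' end by 0.80 to 0.91 in D6/Zbtb20S arrays and 0.53 to 1.31 in wildtype arrays, with replicate 3 the highest. A fit with that value as a covariate is given where it bears on a gene. Of 7 genes listed as markers of the dissected areas, all 7 were lower in D6/Zbtb20S tissue, and of 7 CA1 genes 2 were higher and 1 lower. The CA1 list counted Zbtb20 itself, read on 1437598_at, among the 4 that did not pass. Of all genes, 4.06% were called higher and 3.64% lower at an adjusted p under 0.05. Both lists were written with earlier results of these data known.

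**Figure D1:**
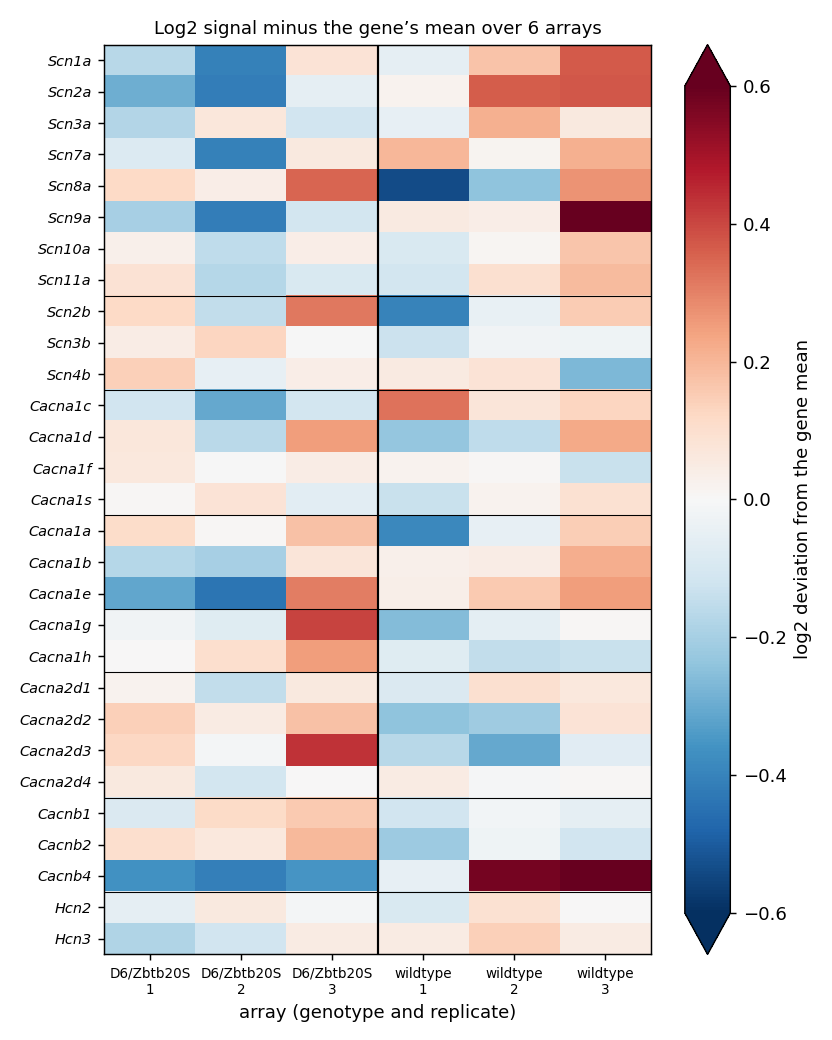
Log2 signal of each of the 29 channel genes (rows, grouped by subunit type) on each of the 6 arrays (columns, D6/Zbtb20S on the left), as the deviation from the mean of that gene over all arrays. Cacnb4 and Scn2a are lower on every D6/Zbtb20S array than on every wildtype array, while most rows show no clean split.

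Most channel genes did not pass the test between the genotypes, which does not show that they were alike. Of the 29 genes, 0 rose and 2 fell at an adjusted p under 0.05 in limma, Cacnb4 and Scn2a, which is 6.90% against 7.71% of all 18193 genes. By direction the background was 4.06% of all genes higher and 3.64% lower. A share of that size is near the background, so the number of calls sets these genes apart in no way. At an unadjusted p under 0.05, 4 channel genes were higher and 6 lower, which is 34.5% against 20.3% of all genes. The ordinary linear model without empirical Bayes called 0 in either direction. Both calls also depended on single arrays. Without D6/Zbtb20S replicate 1, D6/Zbtb20S replicate 2 or wildtype replicate 2, 0 channel genes passed. Of all genes, 837, 986 and 777 were called in those fits, against 1402 with all arrays. Without wildtype replicate 3 there were 2 channel genes higher (Scn8a and Cacna2d2) and 1 lower (Cacnb4), with 1538 of all genes called. With any single array removed, Cacnb4 stayed between -0.96 and -0.64 and Scn2a between -0.62 and -0.42. The median log2 change was -0.0026 over the channel genes and -0.015 over all genes, and the changes ran from -0.75 to 0.36. In 8 of the 29 genes, 4 higher and 4 lower, the arrays of the 2 genotypes did not overlap, which is 27.6% against 26.1% of all genes.

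Signal was above the array median on all 6 arrays for 22 of the 29 genes and below it on all 6 for 6 genes. Those 6 were Scn7a, Scn10a, Scn11a, Scn4b, Cacna1s and Cacna2d4, and 0 of them passed the threshold, with changes from -0.29 to 0.09 and adjusted p from 0.218 to 0.949. Several of them are known from other places: Scn10a and Scn11a from sensory neurons, Cacna1s from skeletal muscle and Cacna2d4 from the retina. Cacna1f, a pore subunit of retinal photoreceptors, lay near the median (5 of 6 arrays above it).

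**Figure D2:**
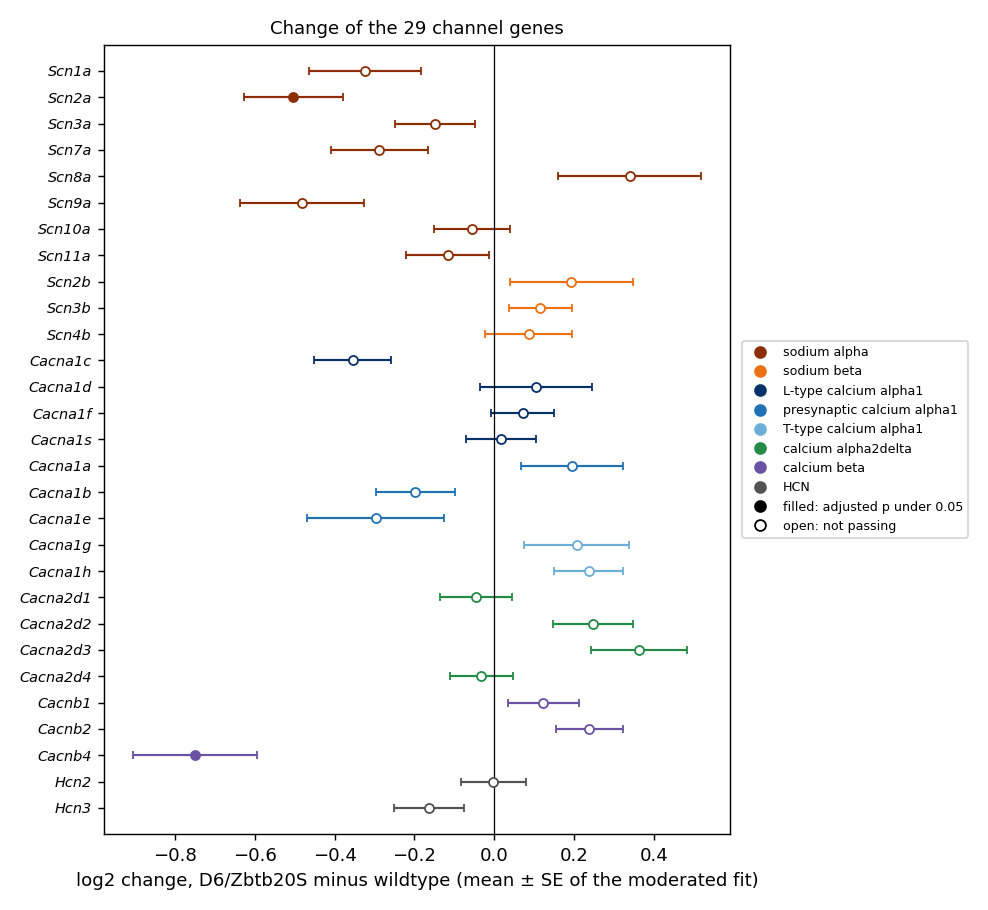
Log2 change (D6/Zbtb20S minus wildtype) of each of the 29 channel genes with its standard error, coloured by subunit type, 3 arrays per genotype. Filled points passed the threshold: Cacnb4 at -0.75 and Scn2a at -0.50, with the open points between -0.48 and 0.36.

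Cacnb4 had the largest change of the 29. It encodes the beta4 subunit, which binds the intracellular loop of calcium channel pores and is mutated in the lethargic mouse. Its log2 signal on probe set 1436912_at was 6.46, 6.41 and 6.47 in D6/Zbtb20S arrays against 6.77, 7.40 and 7.42 in wildtype arrays. The transgenic pools lay close together and under every wildtype pool, while wildtype replicate 1 lay nearer to them than the other wildtype pools. Means were 6.44 ± 0.03 in D6/Zbtb20S and 7.19 ± 0.37 in wildtype tissue (SD, n = 3 arrays each), a 1.68-fold fall (log2 change -0.75 ± 0.16 SE, limma adjusted p = 0.0169).

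The other probe sets of Cacnb4 did not repeat that fall, and 1 went the other way. On 1452089_at the log2 signals were 5.19, 4.91 and 5.17 in D6/Zbtb20S arrays against 3.999, 3.91 and 4.71 in wildtype arrays, a rise of 0.88 (adjusted p = 0.0387 in the limma fit over all probe sets, where 1436912_at had 0.034). All 3 transgenic arrays lay above all 3 wildtype arrays on this probe set. On 1428928_at they were 6.58, 6.56 and 6.32 in D6/Zbtb20S arrays against 6.53, 6.83 and 6.79 in wildtype arrays, with overlapping groups (log2 change -0.23, adjusted p = 0.347). As the mean of its 3 probe sets Cacnb4 was at -0.03 (adjusted p = 0.915). Of 9010 genes with several probe sets, 5 (0.0555%) had at least 1 probe set called higher and 1 called lower, and Cacnb4 was the only channel gene among them. Which stretch of the transcript each probe set reads was not used here, so a change of the gene as a whole and a change between its transcript forms cannot be told apart.

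The call of Cacnb4 on 1436912_at was lost without D6/Zbtb20S replicate 1, 2 or 3 (adjusted p = 0.0737, 0.0599 and 0.0563) and without wildtype replicate 2 (0.0784). Without wildtype replicate 3, the array that stood apart on Zbtb20, the change was -0.64 (adjusted p = 0.0367), and with the actin signal as a covariate it was -0.70 (adjusted p = 0.0045).

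Scn2a was the other gene that fell. It encodes Nav1.2, the main sodium channel of early axon initial segments and unmyelinated axons. Its log2 signal on 1435933_at was 8.21, 8.09 and 8.45 in D6/Zbtb20S arrays against 8.53, 8.87 and 8.88 in wildtype arrays. The groups did not overlap, but D6/Zbtb20S replicate 3 and wildtype replicate 1 lay close to each other. Means were 8.25 ± 0.18 in D6/Zbtb20S and 8.76 ± 0.20 in wildtype tissue (SD, n = 3 arrays each), a 1.42-fold fall (log2 change -0.50 ± 0.12 SE, limma adjusted p = 0.0377). In the fit over all probe sets, with more tests, the same values missed the threshold (adjusted p = 0.0641). The other 3 probe sets of Scn2a did not repeat the fall, at 0.07 (1427280_at), -0.10 (1427281_at) and -0.03 (1445259_at) with adjusted p from 0.732 to 0.901. As the mean of its 4 probe sets Scn2a was at -0.14 (adjusted p = 0.485). The call was lost without D6/Zbtb20S replicate 1 or 2 (adjusted p = 0.141 and 0.13) and without wildtype replicate 2 or 3 (0.153 and 0.086). With the actin signal as a covariate the change was -0.48 (adjusted p = 0.033).

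**Figure D3:**
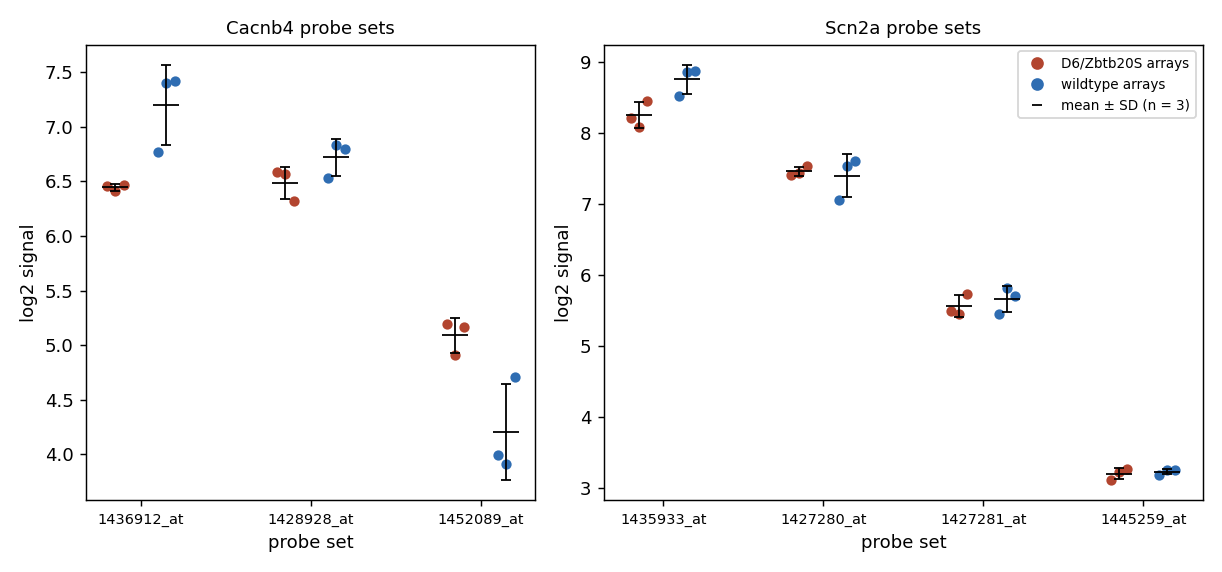
Log2 signal of the 3 Cacnb4 probe sets (left) and the 4 Scn2a probe sets (right) on each D6/Zbtb20S array (red) and each wildtype array (blue), with mean and SD bars (n = 3). On Cacnb4 the transgenic arrays lie below the wildtype ones on 1436912_at and above them on 1452089_at; on Scn2a the groups part on 1435933_at only.

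Sequence upstream of the annotated starts of these 2 genes is shown because they were the only channel genes called, and because Cacnb4, whose probe sets disagreed, has several starts. Promoters in RefSeq's GRCm38.p6 annotation were matched by symbol for 22 of the 29 channel genes (31 starts, 7 genes with several). The lines give the 250 bases before each start, read 5' to 3' on the gene's strand. Capitals mark the E-box CANNTG, a motif bound by basic helix-loop-helix factors.
Cacnb4 start 1, chr2:52676144-52676393, minus strand: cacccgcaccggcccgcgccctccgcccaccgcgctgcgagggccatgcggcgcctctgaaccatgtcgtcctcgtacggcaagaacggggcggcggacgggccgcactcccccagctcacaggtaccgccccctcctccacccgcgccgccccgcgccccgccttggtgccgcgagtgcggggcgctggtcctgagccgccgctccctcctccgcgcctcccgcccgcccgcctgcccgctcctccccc
Cacnb4 start 2, chr2:52675860-52676109, minus strand: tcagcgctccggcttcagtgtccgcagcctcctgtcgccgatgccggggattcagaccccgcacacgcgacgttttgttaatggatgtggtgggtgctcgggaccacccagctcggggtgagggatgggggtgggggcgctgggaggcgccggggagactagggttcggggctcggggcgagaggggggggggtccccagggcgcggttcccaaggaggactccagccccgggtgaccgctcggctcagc
Cacnb4 start 3, chr2:52558612-52558861, minus strand: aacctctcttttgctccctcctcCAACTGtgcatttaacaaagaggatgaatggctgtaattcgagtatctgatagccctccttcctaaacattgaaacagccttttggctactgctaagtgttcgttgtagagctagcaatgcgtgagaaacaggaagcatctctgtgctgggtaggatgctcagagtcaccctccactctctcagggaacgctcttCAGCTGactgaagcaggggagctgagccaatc
Scn2a start 1, chr2:65620519-65620768, plus strand: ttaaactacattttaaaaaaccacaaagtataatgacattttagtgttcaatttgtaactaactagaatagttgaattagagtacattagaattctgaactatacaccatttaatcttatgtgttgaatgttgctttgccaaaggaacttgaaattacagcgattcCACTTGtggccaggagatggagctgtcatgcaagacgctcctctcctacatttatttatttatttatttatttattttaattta
Scn2a start 2, chr2:65668436-65668685, plus strand: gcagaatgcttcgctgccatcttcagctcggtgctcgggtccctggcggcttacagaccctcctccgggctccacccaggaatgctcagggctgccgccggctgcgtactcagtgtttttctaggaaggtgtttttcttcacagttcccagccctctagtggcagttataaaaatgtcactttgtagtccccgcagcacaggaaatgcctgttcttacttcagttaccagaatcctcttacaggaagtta
The 3 Cacnb4 windows do not overlap and differ in base composition, with 79.6% G and C in the window of start 1, 71.2% in that of start 2 and 48.8% in that of start 3, against a median of 52.4% over all 32851 promoters. Only the window of start 3 held E-boxes, 2 of them, while that of start 1 held 6 GC boxes (GGGCGG on either strand, overlaps counted). In Scn2a the window of start 1 was 29.6% G and C and held 1 E-box, and that of start 2 was 53.2% and held 1 TATAAA (either strand). The E-box occurred in 66.2% of all promoters over the same 250 bases, the GC box in 32.7% and TATAAA in 12.4%. Such matches describe these letters and say nothing about the factors.

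Among the 8 sodium channel pores, Scn2a fell and 7 did not pass. Scn8a, which encodes Nav1.6, the channel that joins and partly replaces Nav1.2 at axon initial segments as neurons mature, had log2 signals of 7.64, 7.56 and 7.87 in D6/Zbtb20S arrays against 6.98, 7.28 and 7.79 in wildtype arrays (change 0.34 ± 0.18 SE, adjusted p = 0.336). The wildtype pools spread widely and wildtype replicate 3 lay among the transgenic ones. Without that array the Scn8a change was 0.56 (adjusted p = 0.0248), and with the actin signal as a covariate it was 0.40 (adjusted p = 0.0534). Its other 4 probe sets gave changes of 0.02, 0.44, 0.10 and -0.30, with adjusted p from 0.0897 to 0.962. Scn3a, the embryonic and neonatal channel Nav1.3, had 7.25, 7.49 and 7.31 in D6/Zbtb20S arrays and 7.37, 7.64 and 7.48 in wildtype arrays. The Scn3a groups overlapped (change -0.15, 95% interval -0.37 to 0.07, adjusted p = 0.459).

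Scn1a encodes Nav1.1, best known from inhibitory interneurons. On 1450121_at Scn1a had 4.47, 4.23 and 4.72 in D6/Zbtb20S arrays against 4.58, 4.81 and 5.01 in wildtype arrays (change -0.32 ± 0.14 SE, adjusted p = 0.234). On 1450120_at it pointed the other way, with 4.16, 4.56 and 4.84 in D6/Zbtb20S arrays against 3.76, 3.95 and 4.21 in wildtype arrays (0.54, adjusted p = 0.144). Neither passed, and the mean of its probe sets was 0.075. Scn9a, which encodes Nav1.7 and is known from peripheral neurons, had 4.89, 4.68 and 4.98 in D6/Zbtb20S arrays and 5.14, 5.13 and 5.72 in wildtype arrays. The Scn9a groups did not overlap, with wildtype replicate 3 the highest, and the change of -0.48 ± 0.16 SE did not pass (adjusted p = 0.105). Scn9a passed with equal array medians (adjusted p = 0.0398), with quantile normalization (0.0362) and in 1 other of 15 settings, and without wildtype replicate 3 it was at -0.29 (0.158). Its second probe set 1442809_at was at -0.63 (adjusted p = 0.0544) and was dim, above the array median on only 2 of the 6 arrays.

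Of the 8 sodium channel pore genes, 7 lie in clusters, while Scn8a lies on chromosome 15. In the GRCm38.p6 gene order Scn3a and Scn2a are neighbours on chromosome 2, followed after 3 protein-coding genes by Scn1a, Scn9a and Scn7a next to each other. On their brightest probe sets all 5 had negative changes, from -0.50 to -0.15 with a median of -0.32, and 1 of 5 passed. Other probe sets lay on both sides of zero, with positive changes of up to 0.54 in Scn1a, 0.07 in Scn2a, 0.07 in Scn7a and 0.09 in Scn9a. This stretch was singled out after its values were seen. Scn7a encodes a sodium sensor of glia, and its change was -0.29 (adjusted p = 0.218). Scn10a and Scn11a, neighbours on chromosome 9, were at -0.06 and -0.12.

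The sodium channel beta subunits, which carry an immunoglobulin-like domain, gave 0 calls of 3 in limma and 0 at an unadjusted p under 0.05. Scn3b, the beta subunit of the embryonic and neonatal brain, had 9.44, 9.53 and 9.396 in D6/Zbtb20S arrays against 9.27, 9.38 and 9.37 in wildtype arrays. Its groups did not overlap by a narrow margin, and the change was 0.12 (95% interval -0.06 to 0.29, adjusted p = 0.472). Scn2b was at 0.19 (adjusted p = 0.548) and Scn4b at 0.09 (adjusted p = 0.72). Scn2b and Scn4b are neighbours on chromosome 9.

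The L-type pores couple activity to gene expression. Cacna1c, which encodes Cav1.2, the main L-type channel of cortical neurons, had log2 signals of 5.88, 5.69 and 5.89 in D6/Zbtb20S arrays against 6.32, 6.07 and 6.13 in wildtype arrays. All transgenic arrays lay under all wildtype arrays, and the change of -0.35 ± 0.10 SE missed the threshold (adjusted p = 0.0572). Its second probe set, 1435730_at, gave 5.31, 5.34 and 5.37 in D6/Zbtb20S arrays and 5.54, 5.65 and 5.88 in wildtype arrays, again with no overlap (change -0.35, adjusted p = 0.0988 over all probe sets). The 2 probe sets of Cacna1c thus moved by like amounts, unlike those of Cacnb4 and Scn2a. As the mean of both, Cacna1c passed (-0.35, adjusted p = 0.0155), as it did in 6 of 15 other settings in all, but with any single array removed it never did (0 of 6 fits, with the highest adjusted p at 0.186). Cacna1d, the Cav1.3 pore, had overlapping groups (0.10, 95% interval -0.21 to 0.42, adjusted p = 0.74). Cacna1f and Cacna1s were at 0.07 and 0.02.

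The presynaptic pores Cacna1a (P/Q-type), Cacna1b (N-type) and Cacna1e (R-type) carry the calcium that triggers transmitter release. None of the 3 passed in limma, and 0 had an unadjusted p under 0.05. Cacna1b had 7.45, 7.42 and 7.69 in D6/Zbtb20S arrays against 7.65, 7.67 and 7.84 in wildtype arrays, a change of -0.20 (adjusted p = 0.306). Its probe set 1439612_at went the other way, with no overlap by a narrow margin (0.34, adjusted p = 0.209 over all probe sets). The remaining Cacna1b probe sets were at -0.18 and -0.02. Cacna1e had 7.01, 6.89 and 7.63 in D6/Zbtb20S arrays against 7.36, 7.48 and 7.58 in wildtype arrays (change -0.30, adjusted p = 0.38). D6/Zbtb20S replicate 3 alone lay above the wildtype arrays, and without it the change of Cacna1e was -0.52 and passed (adjusted p = 0.0192). Cacna1a was at 0.19 (adjusted p = 0.452), with probe sets on both sides of zero.

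The T-type pores open near rest and support burst firing. Cacna1h had 7.08, 7.18 and 7.33 in D6/Zbtb20S arrays against 7.01, 6.93 and 6.94 in wildtype arrays. Every transgenic array was above every wildtype array, but the change of 0.24 ± 0.09 SE did not pass (adjusted p = 0.154). Cacna1g was at 0.21 with overlapping arrays (adjusted p = 0.438).

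Of the 4 alpha2delta subunits, which bring pores to the membrane, 0 passed in limma, with 2 higher at an unadjusted p under 0.05. Cacna2d3 had 7.38, 7.25 and 7.69 in D6/Zbtb20S arrays against 7.10, 6.96 and 7.19 in wildtype arrays. The groups did not overlap, and this was the largest positive change among the channel genes (0.36 ± 0.12 SE, 1.29-fold, adjusted p = 0.112). Among the other settings tried, Cacna2d3 passed with array weights (adjusted p = 0.0332). Cacna2d2, a gabapentin-binding subunit, had 6.70, 6.61 and 6.74 in D6/Zbtb20S arrays against 6.32, 6.35 and 6.64 in wildtype arrays (change 0.25, adjusted p = 0.202). Only wildtype replicate 3 overlapped with the transgenic arrays, and without it the Cacna2d2 change was 0.35 (adjusted p = 0.0435). Cacna2d1, the other gabapentin-binding subunit, was at -0.05 (95% interval -0.25 to 0.16, adjusted p = 0.83).

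The calcium channel beta subunit genes Cacnb1 and Cacnb2 had positive changes and did not pass. Cacnb2 had 5.28, 5.24 and 5.37 in D6/Zbtb20S arrays against 4.96, 5.15 and 5.06 in wildtype arrays. Its arrays did not overlap, with the transgenic ones higher, and the change of 0.24 ± 0.08 SE did not pass (adjusted p = 0.137). Cacnb1 was at 0.12 (adjusted p = 0.498), with 4 probe sets from -0.28 to 0.50.

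Neither HCN pore gene passed the threshold (0 of 2 in limma, and 0 at an unadjusted p under 0.05). Hcn2, a cyclic AMP-sensitive subunit, had 5.39, 5.50 and 5.43 in D6/Zbtb20S arrays against 5.35, 5.53 and 5.44 in wildtype arrays. The Hcn2 change was -0.0026, and its 95% interval ran from -0.19 to 0.18 (adjusted p = 0.991). Hcn3 had 6.51, 6.57 and 6.74 in D6/Zbtb20S arrays against 6.74, 6.83 and 6.74 in wildtype arrays, with a change of -0.16 (interval -0.36 to 0.03, adjusted p = 0.339). Other members of the HCN family were not analysed here.

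The balance between related subunits was then read within each array, for pairs chosen after their values were seen. The Scn8a signal minus the Scn2a signal was -0.58, -0.53 and -0.58 in D6/Zbtb20S arrays against -1.54, -1.59 and -1.09 in wildtype arrays, so that the difference moved by 0.84 towards Scn8a. Cacnb2 minus Cacnb4 was -1.18, -1.17 and -1.09 in D6/Zbtb20S arrays against -1.81, -2.24 and -2.35 in wildtype arrays, a shift of 0.99. Within Cacnb4, probe set 1452089_at minus 1436912_at was -1.27, -1.50 and -1.30 in D6/Zbtb20S arrays against -2.77, -3.48 and -2.71 in wildtype arrays, a shift of 1.63. These differences rest in part on the single probe sets of Cacnb4, Scn2a and Scn8a. The other Scn2a probe sets changed by 0.07, -0.10 and -0.03, against 0.34 for Scn8a. Read there, the move towards Scn8a was smaller. On its next brightest probe set, 1457412_at, Scn8a itself changed by 0.02. On 1452089_at Cacnb4 changed by 0.88 against 0.24 for Cacnb2, so read there the Cacnb2 minus Cacnb4 difference moved the other way, towards Cacnb4. On 1428928_at Cacnb4 changed by -0.23, and the difference moved towards Cacnb2. Within Scn1a, 1450120_at minus 1450121_at was 0.04 ± 0.33 in D6/Zbtb20S arrays and -0.82 ± 0.03 in wildtype arrays (SD, n = 3 each). The groups did not overlap in any of the 4. Since the pairs were picked for moving apart, these values are a description and were not tested.

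**Figure D4:**
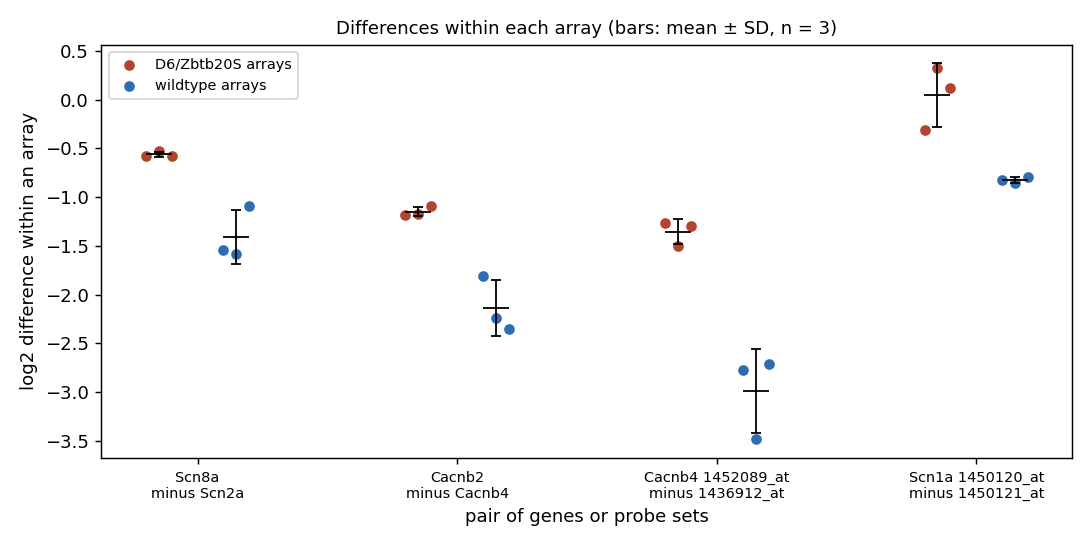
Difference between 2 log2 signals within each array, for Scn8a minus Scn2a, Cacnb2 minus Cacnb4 and 2 pairs of probe sets of Cacnb4 and Scn1a, with D6/Zbtb20S arrays in red, wildtype arrays in blue and bars for mean and SD (n = 3). In each pair all transgenic arrays lie above all wildtype arrays, by 0.84 to 1.63 on average.

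Genes that anchor, bind or tune these channels were read from 5 lists of 63 genes, of which 52 were measured. In limma 5 rose and 10 fell, 9.62% and 19.2% of those measured, against 4.06% and 3.64% of all genes. The median change was -0.08, against -0.015 over all genes. Without D6/Zbtb20S replicate 1, without D6/Zbtb20S replicate 2 or without wildtype replicate 2 the fallen numbered 6. The lists were written with earlier results of these data known.

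Among 14 sodium channel partners 3 rose and 2 fell. Nedd4l, a ubiquitin ligase that removes sodium channels from the membrane, had 8.71, 8.75 and 8.72 in D6/Zbtb20S arrays against 8.002, 8.12 and 8.15 in wildtype arrays. The groups were far apart (0.64 ± 0.08 SE, adjusted p = 0.000834), and 3 of its 5 other probe sets rose too. Fgf11 and Fgf13 are intracellular homologous factors that bind sodium channel tails and shape their inactivation. Fgf11 had 6.45, 6.37 and 6.42 in D6/Zbtb20S arrays against 5.29, 5.62 and 5.81 in wildtype arrays (0.84 ± 0.12 SE, adjusted p = 0.0024). Its other probe set overlapped between the groups and did not pass (0.33, adjusted p = 0.278). Fgf13 had 10.89, 10.86 and 10.74 in D6/Zbtb20S arrays against 10.25, 10.41 and 10.59 in wildtype arrays (0.42 ± 0.10 SE, adjusted p = 0.0343), and its other probe set rose as well. With single arrays removed, the Fgf13 call held only without wildtype replicate 3, and the adjusted p reached 0.136 in the other 5 fits. Fgf12 and Fgf14, of the same family, were at -0.07 and -0.20 and did not pass.

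Both scaffold genes that fell belong to the axon initial segment. Sptbn4, the beta-IV spectrin under the membrane, had 6.51, 6.52 and 6.73 in D6/Zbtb20S arrays against 7.002, 7.06 and 7.02 in wildtype arrays (-0.44 ± 0.09 SE, adjusted p = 0.0129). Nrcam, an adhesion molecule of the segment and of nodes, had 7.84, 7.51 and 7.94 in D6/Zbtb20S arrays against 8.09, 8.27 and 8.47 in wildtype arrays (-0.51 ± 0.13 SE, adjusted p = 0.0464). Neither overlapped between the groups. Removing D6/Zbtb20S replicate 1 or 2 or wildtype replicate 2 ended the call of Sptbn4 (adjusted p up to 0.0665), and removing any of those or wildtype replicate 3 ended that of Nrcam (up to 0.139). Of the other 3 Nrcam probe sets 1 fell (-0.74, adjusted p = 0.0137), and the mean of all its probe sets missed the threshold (-0.44, adjusted p = 0.227). Ank3, the ankyrin that anchors sodium channels there, was at 0.02 (95% interval -0.18 to 0.22, adjusted p = 0.946), and its relative Ank2 at -0.27 (adjusted p = 0.19). Nfasc and Sptbn1, of the same list, were at 0.10 (adjusted p = 0.564) and 0.05 (adjusted p = 0.804).

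Of 4 genes of the sodium leak channel complex, which carries a background current at rest, Fam155a rose. This auxiliary subunit had 7.17, 7.25 and 7.25 in D6/Zbtb20S arrays against 6.66, 6.66 and 6.74 in wildtype arrays (0.54 ± 0.08 SE, adjusted p = 0.00193), and the pools of each genotype lay close together. The pore gene Nalcn was at 0.02 with overlapping arrays (adjusted p = 0.963). In the calcium channel gamma family 1 of 8 fell, Cacng4 (-0.32 ± 0.08 SE, adjusted p = 0.0434), which is better known as an auxiliary subunit of AMPA receptors. Its other probe set was at 0.43 (adjusted p = 0.134), the mean of both at 0.056, and with single arrays removed the call held only without wildtype replicate 1.

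Of 17 calcium channel partners 0 rose in limma (1 at an unadjusted p under 0.05) and 5 fell. Rims2, an active zone scaffold that holds calcium channels at release sites, had 5.94, 5.52 and 5.85 in D6/Zbtb20S arrays against 6.92, 7.06 and 6.997 in wildtype arrays. That was a 2.34-fold fall with no overlap (-1.22 ± 0.11 SE, adjusted p = 0.000164), and 3 of its 4 other probe sets fell. Its paralog Rims1 had 6.96, 6.79 and 6.995 in D6/Zbtb20S arrays against 7.53, 7.64 and 7.87 in wildtype arrays (-0.76 ± 0.10 SE, adjusted p = 0.00173), while its other probe set did not pass (0.12, adjusted p = 0.764) and the mean of both lost the call (-0.32, adjusted p = 0.169). Rimbp2, which links RIM proteins to the channels, was at -0.40 (adjusted p = 0.03). Removing D6/Zbtb20S replicate 1 or 2 or wildtype replicate 2 or 3 ended the Rimbp2 call (adjusted p up to 0.112).

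Rem2, a small GTPase that inhibits calcium channels, had 5.72, 5.84 and 5.78 in D6/Zbtb20S arrays against 6.19, 6.25 and 6.33 in wildtype arrays (-0.48 ± 0.08 SE, adjusted p = 0.00556). Akap7, which anchors protein kinase A near L-type channels in heart muscle, had 7.07, 6.90 and 6.94 in D6/Zbtb20S arrays against 7.66, 7.88 and 7.85 in wildtype arrays (-0.83 ± 0.09 SE, adjusted p = 0.000459), and its other probe set fell too. The transgenic arrays of both genes lay clearly under the wildtype ones. Erc2, another active zone scaffold, was at 0.38 and just missed the threshold (adjusted p = 0.052).

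In the HCN partner list 1 of 9 rose and 2 fell. Pex5l, known as TRIP8b, is the auxiliary subunit that sets how much HCN channel reaches the membrane and the distal dendrite. It had 5.72, 5.36 and 5.63 in D6/Zbtb20S arrays against 4.98, 4.90 and 4.91 in wildtype arrays (0.64 ± 0.10 SE, 1.56-fold, adjusted p = 0.00383). The groups did not overlap on any of its 4 probe sets, all of them higher in D6/Zbtb20S arrays, and 1 of the other 3 passed. Cav1 and Dpp10 fell, and neither is chiefly an HCN gene: Cav1 encodes the membrane scaffold caveolin-1, and Dpp10 an auxiliary subunit of Kv4 potassium channels. Cav1 had 6.32, 5.99 and 6.26 in D6/Zbtb20S arrays against 7.35, 7.62 and 7.56 in wildtype arrays (-1.32 ± 0.11 SE, adjusted p = 8.79e-05). Dpp10 had 5.14, 4.89 and 5.07 in D6/Zbtb20S arrays against 6.71, 7.08 and 7.11 in wildtype arrays (-1.94 ± 0.12 SE, 3.83-fold lower, adjusted p = 1.57e-05). Dpp10 had the largest change of all partner genes, and its other probe set fell as well.

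**Figure D5:**
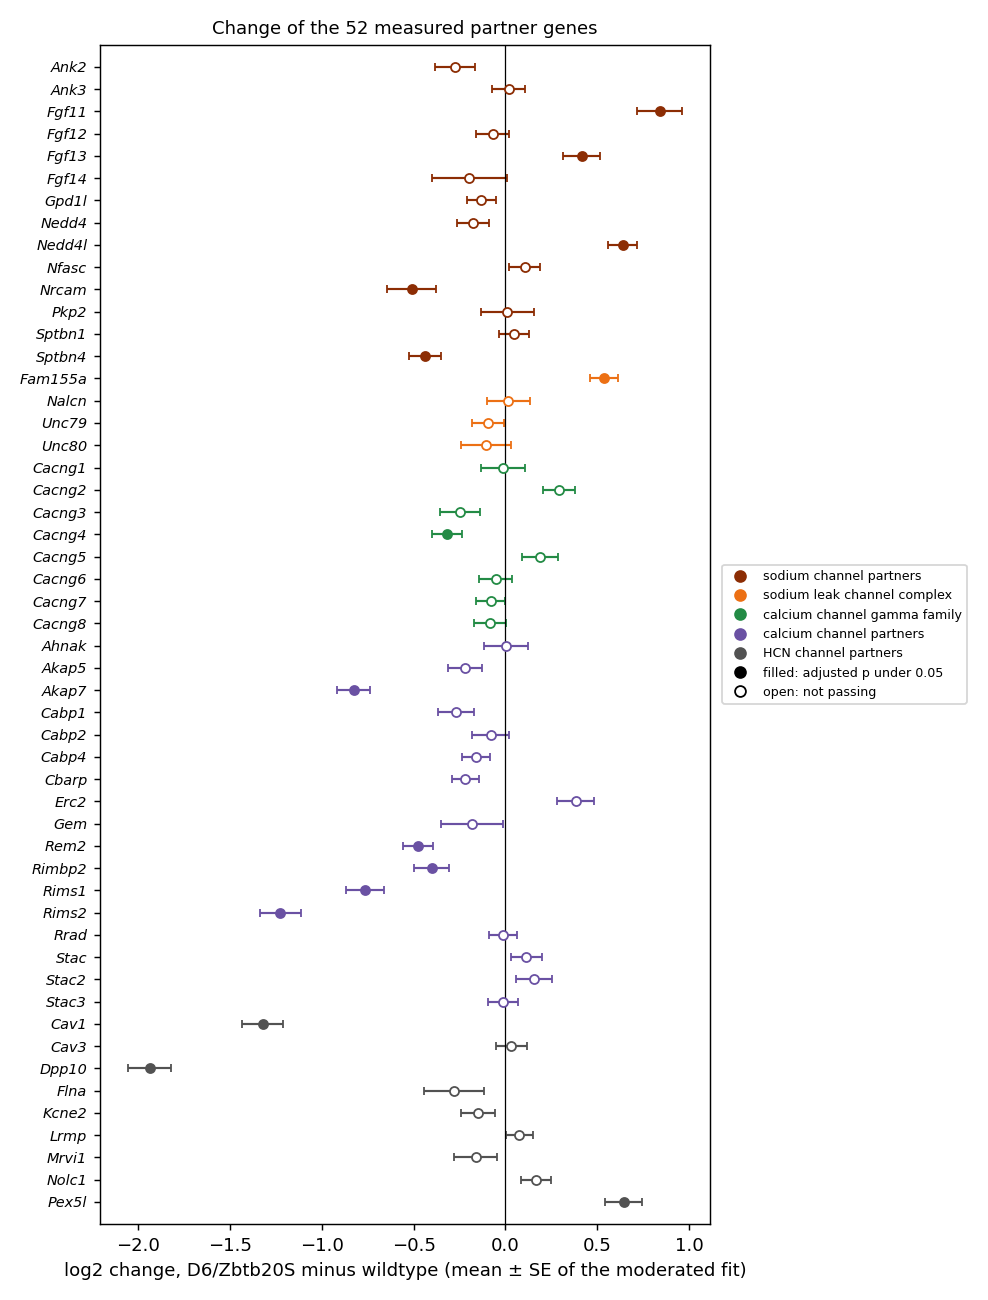
Log2 change (D6/Zbtb20S minus wildtype) with its standard error for the 52 measured partner genes, coloured by list, 3 arrays per genotype. Filled points passed the threshold: the 5 that rose lie between 0.42 and 0.84, and the 10 that fell between -1.94 and -0.32.

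Marker genes of several cell types moved with the genotype. Of all genes, 4.06% were called higher and 3.64% lower. Among pan-neuronal genes 0 of 11 rose in limma (0 at an unadjusted p under 0.05). The 4 that fell were Nefm (-1.51), Nefl (-1.67), Snap25 (-1.03) and Elavl4 (-0.44). The other 7 did not pass, with changes from -0.16 to 0.11. The summed linear signal of the whole list was 8381 to 8926 in D6/Zbtb20S arrays and 10279 to 10487 in wildtype arrays. GABAergic genes summed to 859 to 916 in D6/Zbtb20S arrays against 1058 to 1108 in wildtype arrays. Of these 11 genes 2 were lower, Gad1 (-0.60) and Nxph1 (-0.55), and 9 did not pass. Such linear sums weigh bright genes most, and Gad1 was the brightest of this list. Microglial genes summed to 831 to 964 in D6/Zbtb20S arrays against 645 to 682 in wildtype arrays, with 4 of 12 higher. Oligodendrocyte lineage genes summed to 716 to 795 in D6/Zbtb20S arrays against 993 to 1176 in wildtype arrays, with 4 of 9 lower. Glutamatergic genes went both ways, 2 higher and 3 lower of 8, with sums of 2926 to 3492 in D6/Zbtb20S arrays and 2569 to 2982 in wildtype arrays. In these 5 lists the sums overlapped between the groups for the glutamatergic genes only. Among 11 radial glia and astrocyte genes 0 rose and 1 fell, as among 10 endothelial and mural genes. Of 5 intermediate progenitor genes 1 was higher, Neurog2 (0.87), and 1 lower, Eomes (-1.11). Their sums overlapped, at 181 to 196 in D6/Zbtb20S arrays and 175 to 217 in wildtype arrays. The part of any of these shifts in the channel values was not tested. Of 9 skeletal muscle genes, 7 lay under the array median on every array, as did all 5 cardiac muscle genes.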

How the data were processed

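Gene expression was measured with Affymetrix 3' expression arrays, 3 for D6/Zbtb20S and 3 for wildtype tissue. The deposited table holds log2 values that the authors made with RMA, per the submitters' processing notes, which also name limma; versions and order are not given in the sources used here. The log2 scale was taken from the range of the values. Array medians lay between 3.83 and 3.97, so the last scaling is unknown, and RMA compresses changes of dim genes. Of 45101 probe sets, 64 controls were left out and 45037 tested, of which 34945 had 1 symbol, 932 several and 9160 none in the platform annotation.

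Groups came from the titles and genotypes. Differences (D6/Zbtb20S minus wildtype) were fitted in R 4.3.3 with lmFit and eBayes of limma 3.58.1 and no covariates, with Benjamini-Hochberg adjustment over 18193 genes, or 45037 probe sets where probe sets are named; every adjusted p is from these fits unless stated otherwise. The threshold was 0.05. The fit was tested on simulated data. The members and lists were chosen with earlier results of these data known. Every channel gene could be named, as could partner and marker genes past the threshold and Zbtb20. Ank2, Ank3, Nfasc, Sptbn1, Fgf12, Fgf14, Nalcn and Erc2, which did not pass, were named after their values were seen. Alternatives were equal medians or quantiles, dim genes removed, weighted arrays, a trend in the prior variance, other probe sets singly or averaged, adjusted p thresholds of 0.01 and 0.1, the model without moderation, the actin signal as a covariate, a replicate block and leaving out each array. Probe-level files were not used here, and the number of arrays limits precision. Python 3.11.15 and matplotlib 3.10.9 made the figures.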

Additional observations from a re-analysis of the deposited data

How the results depend on the processing

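Leaving out 1 array at a time gave 0 to 2 channel genes higher and 0 to 2 lower, 4 to 6 partner genes higher and 6 to 10 lower, and 777 to 1538 genes called in all. The channel genes called lower numbered 4 with equal array medians, 4 with quantile normalization, 4 with array weights (and 1 higher), 1 with the mean of probe sets, 0 at an adjusted p under 0.01 and 0 with the ordinary linear model. The partner genes called lower numbered 6 at an adjusted p under 0.01 and 3 with the ordinary linear model, which called 2 higher. All genes called were 2707 with array weights, 693 at an adjusted p under 0.01 and 267 with the ordinary linear model, against 1402. Replicate numbers did not pair the arrays (correlation of deviations -0.22, 0.18 and -0.01 for numbers 1, 2 and 3). With the replicate block 3 channel genes were lower (Scn9a joined them, adjusted p = 0.033), 4 partner genes higher and 9 lower, and 1343 genes were called.

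Some changes turned sign, most of them near zero, but Scn1a and the called Cacng4 (both -0.32 in the fit reported) turned too. Cacna1s was at -0.00034 with equal array medians, Hcn2 at 0.0047 with the actin covariate, and as the mean of probe sets Cacna2d1 was at 0.0873, Cacna2d4 at 0.00079, Scn1a at 0.0748 and Cacng4 at 0.0555. With single arrays removed Hcn2 lay between -0.0480 and 0.0422, Cacna1s between -0.0477 and 0.0652, Cacna2d1 between -0.10 and 0.0177, Cacna2d4 between -0.0699 and 0.0150, Scn10a between -0.12 and 0.0118 and Scn4b between -0.0261 and 0.15. Other probe sets pointed against the main one in Cacna1a (-0.21 and -0.0701), Cacna1b (0.34), Cacna2d1 (0.13, 0.17 and 0.20), Cacna2d2 (-0.0908 and -0.0213), Cacna2d4 (0.0221 and 0.0127), Cacnb1 (-0.0360 and -0.28), Cacnb4 (0.88), Scn1a (0.54 and 0.0044), Scn2a (0.0651), Scn2b (-0.0552 and -0.0333), Scn7a (0.0698), Scn8a (-0.30) and Scn9a (0.0925). The cause was not tested. Over all other settings, called genes lost their call with the same sign in 47 values, lost it with the sign turned in 1 (Cacng4) and kept it in 207, and uncalled channel genes gained a call in 14 and stayed uncalled with the same sign in 370.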

Other observations

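Of the 43 probe sets that did not represent a channel gene, 1 passed the threshold, the Cacnb4 probe set 1452089_at, which is 2.33% against 5.52% of all 45037 probe sets. The other genes with probe sets called both ways were Arhgap5, Lhfpl3, Luc7l3 and Slc12a2. On Cacnb1 the probe set 1426108_s_at read 2.72, 2.74 and 3.23 in D6/Zbtb20S arrays against 2.53, 2.28 and 2.39 in wildtype arrays, with no overlap (0.50, adjusted p = 0.0966), while the gene's main probe set did not pass. That dim probe set lay above the array median on 0 of the 6 arrays. On Scn8a the probe set 1439889_at read 5.51, 5.36 and 5.73 in D6/Zbtb20S arrays against 5.04, 4.95 and 5.29 in wildtype arrays, with no overlap (0.44, adjusted p = 0.0897).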
